A study of Mus musculus with 6 samples.

Results

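The transcription factor NRF2 and 8 antioxidant genes linked to it were followed in intestinal RNA of mice without SHP and of WT mice. The genes were taken by name: Nfe2l2, which encodes NRF2, and Nqo1, Hmox1, Gclc, Gclm, Txnrd1, Srxn1, Gpx2 and G6pdx. All 9 were found among the 23284 genes of the count tables, and all 9 were among the 12106 genes that passed the filter on low counts. The SHP-KO group held 3 libraries from male mice that lack SHP, the small heterodimer partner, an orphan nuclear receptor and corepressor encoded by Nr0b2. The WT group held 3 libraries from wild-type males. Mice of both groups were 8 weeks old, were fasted overnight and had food again for 6 h, and RNA came from jejunum and ileum together. The sources used here state neither the strain, nor the design of the SHP allele, nor the share of jejunum in each library, nor whether each library came from its own animal. The p-values therefore rest on the spread among 6 libraries, and that spread may be technical only.

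NRF2 is a basic leucine zipper factor that is held at a low level in resting cells by KEAP1, the adaptor that hands it to a CUL3 ubiquitin ligase. When electrophiles or oxidants modify KEAP1, NRF2 accumulates, pairs with a small MAF protein and binds antioxidant response elements, while BACH1 competes for the same elements. Its targets make glutathione, recharge thioredoxin, reduce quinones, degrade haem and supply NADPH, and in the intestine they serve an epithelium that meets dietary oxidants and bile.

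Total counts ran from 7956528 to 9289543 in SHP-KO libraries and from 11265437 to 13511800 in WT libraries. Nr0b2 had 1, 0 and 0 counts in SHP-KO replicates 1 to 3, against 31, 14 and 23 in WT replicates 1 to 3. The epithelium markers were abundant in both groups, with a summed level of 19073 to 19139 CPM (read counts scaled to library size and by edgeR's TMM factors) in SHP-KO and 20294 to 20493 CPM in WT. Of these 8 markers, 2 were higher in SHP-KO, 5 lower and 1 did not pass, from log2 -0.82 for Krt19 to 0.56 for Krt18. Other marker lists differed between the groups as well. Of the proximal small intestine markers, 8 of 10 were higher and 2 lower in SHP-KO, and of the ileum markers 7 of 10 were lower and 3 higher. Higher in SHP-KO were 10 of 10 smooth muscle, 7 of 7 goblet cell, 6 of 7 fibroblast and matrix and 4 of 4 tested adipocyte markers. Lower were 9 of 10 crypt and dividing cell markers. Unless another test is named, calls for these and later lists are at an adjusted p under 0.05 in edgeR's quasi-likelihood test. By that test 35.2% of all tested genes were higher and 35.4% lower. Summed levels were 28795 to 29265 CPM in SHP-KO and 8870 to 8964 CPM in WT for the proximal markers, 3620 to 3682 CPM in SHP-KO and 18683 to 19074 CPM in WT for the ileum markers, and 1356 to 1392 CPM in SHP-KO and 371 to 374 CPM in WT for the smooth muscle markers. They were 7476 to 7605 CPM in SHP-KO and 2609 to 2688 CPM in WT for goblet cells, 81.1 to 84.6 CPM in SHP-KO and 21.6 to 23.8 CPM in WT for fibroblasts and matrix, and 156 to 168 CPM in SHP-KO and 117 to 120.2 CPM in WT for adipocytes. Most of the ileum sum in WT was Fabp6, at a mean of 144.5 CPM in SHP-KO and 10792 CPM in WT. Most of the proximal sum in SHP-KO was Apoa4, at 18859 CPM in SHP-KO and 3525 CPM in WT. The ileum markers that rose were Slc10a2, Pyy and Nts (log2 1.14, 0.49 and 0.30). The proximal markers that fell were Slc40a1 and Sis (log2 -3.45 and -1.24). Most of the adipocyte sum was Cidec, at a mean of 138 CPM in SHP-KO and 116 CPM in WT (log2 0.25). The other tested adipocyte markers, Fabp4, Cfd and Car3, were higher by log2 2.92, 3.33 and 4.69. All 8 B cell markers were lower, with a summed level of 1.31 to 1.40 CPM in SHP-KO and 79.8 to 83.7 CPM in WT, and Cr2, Fcer2a and Faim3 had 0 counts in every SHP-KO library. In bulk tissue, fewer cells of a type, less RNA per cell and another share of jejunum and ileum cannot be told apart. The part of these shifts in the values below was not tested.

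The gene for NRF2 itself was 1.36-fold higher in SHP-KO, while 4 of its 8 target and partner genes were lower. By the fitted fold, Gclm, Hmox1, Gpx2 and Nqo1 fell to 0.448, 0.469, 0.493 and 0.562 of their WT level. Txnrd1 and G6pdx rose by 1.12-fold and 1.33-fold, and Gclc and Srxn1 did not pass the test. Of the 9 genes, 3 rose and 4 fell at an adjusted p under 0.05 (edgeR's quasi-likelihood test, Benjamini-Hochberg over all tested genes), where 35.2% of all tested genes were called higher and 35.4% lower. The total of 7 of 9 was thus near the 70.6% called among all tested genes, so the count of calls does not set these genes apart. The median log2 fold change was -0.04 over the 9 genes and -0.01 over all tested genes. Among the falls, 3 were of at least 2-fold, where 8.15% of all tested genes were called with a fall of that size. Gclm alone of these 3 was past 2-fold in all 17 alternatives: Gpx2 was at log2 -0.996 with a filter of 5 CPM in 3 libraries and at -0.93 with libraries scaled to the epithelium markers, and Hmox1, at a few counts, lost its call or was filtered out in several.

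**Figure D1:**
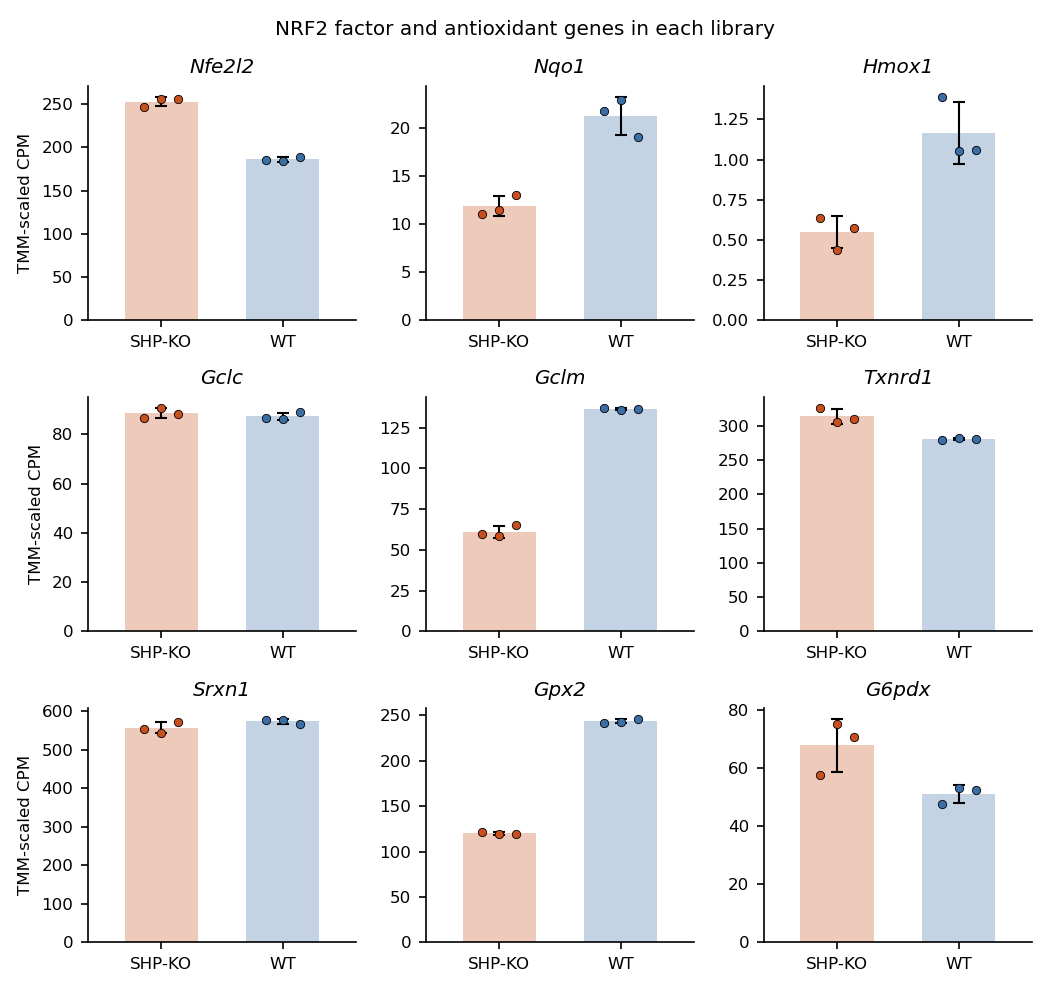
Level of each of the 9 genes in every library, in TMM-scaled CPM on axes that start at 0, with SHP-KO at the left and WT at the right of each panel. Bars are means of 3 libraries, whiskers are SDs and points are libraries; Gclm and Gpx2 sit far below WT in all 3 SHP-KO libraries, and only Gclc and Srxn1 have overlapping groups.

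The assumed size of the replicate spread decided several of these calls. The libraries of a group were very alike, with an estimated common coefficient of variation (CV) of 0.0297. An edgeR exact test that takes a CV of 0.2 as given returned the values of the authors' deposited table. With that CV on the same 12106 genes, 3 of the 9 genes passed (Gclm, Gpx2 and Nqo1, all lower), where 33.4% of all tested genes passed, 17.9% higher and 15.5% lower. Of the 9, 0 were called higher, also at an unadjusted p under 0.05 (edgeR exact test). In the authors' deposited table the same 3 genes had an adjusted p under 0.05, against 34.6% of its 12939 genes, with log2 fold changes of -1.18 for Gclm, -1.04 for Gpx2 and -0.85 for Nqo1.

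Promoter windows for 7 of the 9 genes were taken from RefSeq (GRCm38.p6, 250 bases before to 50 bases after each annotated start, 9 windows in all), whereas the counts are on mm9. They were searched on both strands for the core of the antioxidant response element, TGACNNNGC, and for TGANTCA, a site of the AP-1 type that can overlap such an element. The core was found in 5 of the 9 windows, those of Gclm, Nfe2l2, Srxn1, G6pdx and the middle one of 3 Txnrd1 windows, and in 12.4% of 32851 mouse windows of the same length. TGANTCA was found in the Srxn1 window, at 2 places, and in 7.81% of all windows. Shown here are Gclm and Gpx2, the pair with the clearest falls, Srxn1, which did not pass, and the Txnrd1 window with a match, each 5′ to 3′ on its gene's strand, with matches to either motif or to TGANTCAGC (in 1.19% of all windows) in capitals.
Gclm, chr3:122245307-122245606, plus strand: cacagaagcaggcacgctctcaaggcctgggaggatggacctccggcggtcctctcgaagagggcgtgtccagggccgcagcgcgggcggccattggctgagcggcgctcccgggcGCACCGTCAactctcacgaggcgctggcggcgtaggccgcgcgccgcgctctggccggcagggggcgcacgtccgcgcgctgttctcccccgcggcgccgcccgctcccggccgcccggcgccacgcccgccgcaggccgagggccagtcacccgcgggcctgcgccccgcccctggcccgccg
Gpx2, chr12:76795505-76795804, minus strand: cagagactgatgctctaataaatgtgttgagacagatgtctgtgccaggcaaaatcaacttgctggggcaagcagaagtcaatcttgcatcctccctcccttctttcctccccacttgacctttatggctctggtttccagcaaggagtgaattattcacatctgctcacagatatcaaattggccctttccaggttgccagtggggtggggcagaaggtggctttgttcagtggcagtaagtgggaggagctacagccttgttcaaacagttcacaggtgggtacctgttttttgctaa
Srxn1, chr2:152105274-152105573, plus strand: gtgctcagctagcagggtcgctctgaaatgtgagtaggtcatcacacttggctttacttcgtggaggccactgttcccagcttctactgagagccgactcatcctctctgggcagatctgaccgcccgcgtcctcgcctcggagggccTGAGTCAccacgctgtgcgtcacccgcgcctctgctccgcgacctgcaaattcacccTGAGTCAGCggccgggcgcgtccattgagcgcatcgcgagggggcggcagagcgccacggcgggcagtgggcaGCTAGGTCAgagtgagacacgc
Txnrd1, chr10:82858956-82859255, plus strand: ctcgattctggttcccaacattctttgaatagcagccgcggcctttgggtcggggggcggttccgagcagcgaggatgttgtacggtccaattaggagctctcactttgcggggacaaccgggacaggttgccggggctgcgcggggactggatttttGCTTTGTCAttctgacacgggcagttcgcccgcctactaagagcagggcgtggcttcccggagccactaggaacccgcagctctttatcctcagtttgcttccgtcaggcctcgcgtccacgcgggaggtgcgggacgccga
The Gclm match reads GCACCGTCA as written, that is TGACGGTGC on the other strand, and begins 134 bases before the start. The Txnrd1 match, GCTTTGTCA, begins 92 bases before the start. In Srxn1 the stretch TGAGTCAGC begins 45 bases before the start, and a core match on the other strand lies just after the start. The Gpx2 window holds neither motif, nor does that of Nqo1, both genes that fell, and the windows of Nfe2l2 and G6pdx, which rose, hold TGACTCCGC and, on the other strand, TGACTGAGC. Gene by gene, Nfe2l2, G6pdx and Txnrd1, which rose, each had a core match in a window, as did Srxn1, which did not pass. Gclc, which did not pass either, had no window. Of the genes that fell, Gclm had a match, Gpx2 and Nqo1 had none, and Hmox1 had no window. So few genes cannot tie a match to a direction, and a match in letters is a description, not a site. The windows reach only 250 bases before the start, so a missing match says nothing of sites farther upstream.

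Nfe2l2 (chromosome 2, 75513576 to 75542698, minus strand, 5 exons, mm9 as in the count files) was at 247, 255 and 256 CPM in SHP-KO replicates 1 to 3 and at 185, 184 and 189 CPM in WT replicates 1 to 3. The groups did not overlap, as was true of 7 of the 9 genes and of 72% of all tested genes. The means were 253 ± 5.31 CPM in SHP-KO and 186 ± 2.82 CPM in WT (SD, n = 3 each), which is a log2 difference of 0.44 with an SE of 0.034 and a 95% interval of 0.38 to 0.51 (adjusted p 4.98e-21, edgeR). This size is ordinary in the comparison: 51.3% of tested genes had a smaller absolute log2 fold change. The call was lost when a CV of 0.2 was assumed (exact test of edgeR, adjusted p 0.145). The tested genes whose centred log2(CPM + 1) profile over the 6 libraries lay nearest to that of Nfe2l2 were Bcl2l14, Ovol1 and Lias, with root mean square differences of 0.0073, 0.0127 and 0.0146. Their log2 fold changes were 0.449, 0.446 and 0.449. With libraries of a group so alike, such nearness mainly restates a similar difference between the groups and does not show shared control.

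The regulators of NRF2 moved in both directions. Of the 9 listed genes, 4 were higher, 4 lower and 1 did not pass, and their median was log2 -0.09. Over all tested genes, 35.2% were called higher and 35.4% lower. The small MAF genes, whose products pair with NRF2, were all called higher: Mafg stood at 38.8, 37.4 and 36.7 CPM in SHP-KO and at 15.1, 19.0 and 15.5 CPM in WT (log2 1.19, SE 0.082), Mafk rose by log2 0.70 and Maff by log2 0.22. Sqstm1, which encodes p62, a cargo receptor that binds KEAP1 and is itself an NRF2 target, was at 159, 178 and 161 CPM in SHP-KO and at 351, 381 and 369.8 CPM in WT (log2 -1.14, SE 0.036). Bach1, the competing repressor, fell by 0.45 and Cul3 by 0.46 on the log2 scale. Keap1 was at 64.3 ± 0.57 CPM in SHP-KO and 56.4 ± 1.62 CPM in WT (log2 0.19, SE 0.056). Nfe2l1, the relative of NRF2 that controls proteasome genes, fell by 0.38, and Rbx1, the RING subunit of the ligase, had a log2 fold change of -0.09 and did not pass. When a CV of 0.2 was assumed, only Mafg, Mafk and Sqstm1 of these genes passed (exact test of edgeR, adjusted p 2.03e-05, 0.014 and 1.72e-05).

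**Figure D2:**
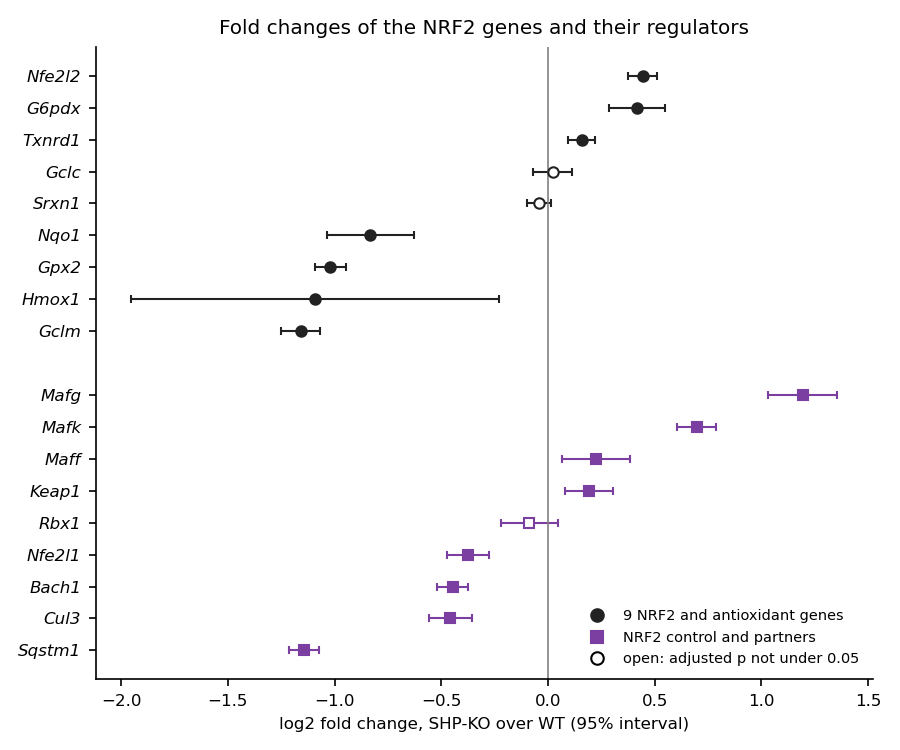
Log2 fold change, SHP-KO over WT, with 95% intervals from the edgeR fit, for the 9 genes (circles) and for the 9 genes of NRF2 control (squares). Filled symbols had an adjusted p under 0.05; Nfe2l2 lies at 0.44 and Gclm at -1.16, and the small MAF genes lie right of 0 while Sqstm1 lies at -1.14.

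The paired genes of glutathione synthesis came apart. Glutamate-cysteine ligase, the rate-limiting enzyme, has a catalytic subunit (Gclc) and a modifier subunit (Gclm) that raises its affinity for glutamate. Gclm (chromosome 3, 121948510 to 121969566) was at 59.9, 58.3 and 65.1 CPM in SHP-KO and at 137, 136 and 137 CPM in WT. The highest SHP-KO library lay far below the lowest WT library. The means were 61.1 ± 3.54 CPM in SHP-KO and 136 ± 0.46 CPM in WT, or log2 -1.16 with an SE of 0.047 (adjusted p 4.67e-39, edgeR). Gclc (chromosome 9, 77602342 to 77642296) was at 86.7, 90.6 and 88.3 CPM in SHP-KO and at 86.6, 86.4 and 88.9 CPM in WT. Its groups overlapped and its fold change of 1.01 had a 95% interval of 0.952 to 1.08 (adjusted p 0.693, edgeR), so that a fall of the size seen for Gclm lies outside it.

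Per kb of exon, the ratio of Gclm to Gclc within a library was 1.61, 1.501 and 1.72 in SHP-KO replicates 1 to 3 and 3.68, 3.67 and 3.58 in WT replicates 1 to 3. This ratio does not depend on how libraries are scaled. The difference of mean log2 ratios was -1.18, and the groups did not overlap. A two-sided exact permutation test gave p = 0.10, the smallest that 3 against 3 libraries allow, and 0.113 after Benjamini-Hochberg adjustment over the 9 ratios computed.

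Other genes of glutathione supply and use were as divided, with 7 of 14 tested genes higher, 5 lower and 2 not passing, and a median log2 fold change of 0.14. Slc3a2, the heavy chain of amino acid transporters including the cystine carrier, was at 682 ± 15.7 CPM in SHP-KO and 398 ± 3.85 CPM in WT (log2 0.78). Ggt1, which splits extracellular glutathione, rose by log2 0.43. Glrx, glutaredoxin, fell by 0.74 and Mgst1, a microsomal glutathione transferase, by 0.69 on the log2 scale. Picked after their values were seen, Gss, Slc7a11 and Gsr extend the picture around the ligase. Gss, which adds glycine to complete glutathione, was at 329, 363 and 305 CPM in SHP-KO and at 146, 145 and 143 CPM in WT (log2 1.20, SE 0.043). Slc7a11, the light chain of the cystine carrier and an NRF2 target, held 5 counts in all SHP-KO libraries and 47 in all WT libraries (log2 -2.59, SE 0.55). Gsr, which regenerates reduced glutathione, fell by 0.64 on the log2 scale.

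Gpx2, the selenium-dependent glutathione peroxidase of the gastrointestinal epithelium, was also lower in SHP-KO. It lies on chromosome 12 from 77893322 to 77896541 with 2 exons. Its level was 122, 119.8 and 119 CPM in SHP-KO replicates 1 to 3 and 242, 243 and 246 CPM in WT replicates 1 to 3. Libraries within each group lay within a few CPM of each other. On the log2 scale the difference was -1.02 (SE 0.037, 95% interval -1.09 to -0.95, adjusted p 1.18e-42, edgeR). Gpx2 is known to be strongest in crypts, and 9 of 10 crypt and dividing cell markers were lower in the same libraries, Lgr5 being the exception. Their summed level was 94.8 to 96.8 CPM in SHP-KO and 186 to 194 CPM in WT, and the part of this shift in the value of Gpx2 was not tested. Gpx1, its ubiquitous relative, picked after its values were seen, was at 67.0 ± 2.01 CPM in SHP-KO and 130.2 ± 2.44 CPM in WT (log2 -0.96, SE 0.046), and Gpx4, which reduces lipid peroxides, rose by log2 0.34.

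In the thioredoxin system, Txnrd1 was slightly higher and Srxn1 did not pass. Txnrd1 (chromosome 10, 82296696 to 82360469), the cytosolic thioredoxin reductase, was at 325, 305 and 309.6 CPM in SHP-KO and at 279, 282 and 281 CPM in WT. All 3 SHP-KO libraries were higher, by log2 0.16 with an SE of 0.032 (adjusted p 6.63e-06, edgeR), a size that was not called when a CV of 0.2 was assumed (exact test of edgeR, adjusted p 0.658). Srxn1 (chromosome 2, 151931466 to 151937089), sulfiredoxin, which restores overoxidised peroxiredoxins, was at 554, 544 and 573 CPM in SHP-KO and at 577, 577 and 567 CPM in WT. Its groups overlapped, and the fold change of 0.971 had a 95% interval of 0.935 to 1.01 (adjusted p 0.164, edgeR). Without scaling factors Srxn1 was called lower (log2 -0.080, adjusted p 0.00711, edgeR), and with libraries scaled to the epithelium markers its log2 fold change was 0.050. Of 11 thioredoxin and peroxiredoxin genes, 5 were higher, 4 lower and 2 did not pass (median log2 0.05). Among all tested genes 35.2% were called higher and 35.4% lower. Prdx5 and Txn2, a mitochondrial thioredoxin, rose by log2 0.39 and 0.50. On the same scale cytosolic Txn1 fell by 0.27, and Txnip, the thioredoxin inhibitor that glucose induces, fell by 1.37. Prdx4, a peroxiredoxin of the endoplasmic reticulum, picked after its values were seen, was low in both groups, at 1.64 ± 0.206 CPM in SHP-KO and 3.73 ± 0.589 CPM in WT (log2 -1.19).

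Nqo1, the quinone reductase whose gene is widely used to report NRF2 activity, was lower. Its level (chromosome 8, 109912125 to 109927105) was 11.1, 11.5 and 13.1 CPM in SHP-KO replicates 1 to 3 and 21.8, 22.9 and 19.0 CPM in WT replicates 1 to 3. The groups were well apart, at log2 -0.83 with an SE of 0.10 (adjusted p 1.35e-11, edgeR). Of 7 other tested detoxification genes linked to NRF2, 3 were higher, 1 lower and 3 did not pass, the list's median being log2 0.02. Among all tested genes 35.2% were called higher and 35.4% lower. Osgin1, an oxidative stress growth inhibitor, was at 177 ± 1.45 CPM in SHP-KO and 106 ± 3.13 CPM in WT (log2 0.74), Cbr1, a carbonyl reductase, rose by log2 0.37, and Nqo2, the relative of Nqo1, fell by 0.33.

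Hmox1, the inducible haem oxygenase, was barely detected. It lies on chromosome 8 from 77617517 to 77624492, and libraries held 5, 4 and 5 counts in SHP-KO and 19, 12 and 14 counts in WT. These are 0.549 ± 0.102 CPM in SHP-KO and 1.17 ± 0.192 CPM in WT. The groups did not overlap, but the log2 fold change of -1.09 had a 95% interval of -1.95 to -0.23 (adjusted p 0.0188, edgeR). The call was lost without SHP-KO replicate 2 (log2 -0.95, adjusted p 0.083), in DESeq2 (adjusted p 0.0999) and when a CV of 0.2 was assumed (exact test of edgeR, adjusted p 0.0936). Hmox1 is also a gene of tissue macrophages: of 8 tested macrophage markers, 2 were higher, 3 lower and 3 did not pass. Their summed level was 58.4 to 61.1 CPM in SHP-KO and 114 to 117 CPM in WT, and Lyz2, the most abundant of them in WT, was at 12.3 CPM in SHP-KO and 72.4 CPM in WT. Without Lyz2 the other 9 markers in the files summed to 44.7 to 48.9 CPM in SHP-KO and 42.7 to 44.2 CPM in WT. Cd68 and Itgam rose by log2 1.48 and 1.63, whereas Mrc1 (log2 -0.95) and C1qb (log2 -0.68) fell. The defining markers Emr1 (18 counts in all SHP-KO and 14 in all WT libraries) and Cd163 (3 and 3 counts) were near 0, Csf1r was at 7.75 ± 0.952 CPM in SHP-KO and 7.99 ± 0.188 CPM in WT, and the part of these cells in the value of Hmox1 was not tested. Hmox2, the constitutive haem oxygenase, was at 22.4 ± 1.36 CPM in SHP-KO and 20.4 ± 1.49 CPM in WT and did not pass. Of 7 haem and iron genes, 1 was higher (Ftl1, ferritin light chain, log2 0.50), 3 lower and 3 did not pass. Among all tested genes 35.2% were called higher and 35.4% lower. Fth1, ferritin heavy chain, fell by 0.30. Slc40a1, the iron exporter, which is also one of the proximal markers that fell, was at 0.969 ± 0.0715 CPM in SHP-KO and 10.7 ± 0.63 CPM in WT.

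G6pdx, the X-linked glucose-6-phosphate dehydrogenase that makes NADPH at the head of the pentose phosphate pathway, rose but scattered. It lies on chromosome X from 71654825 to 71674500 and was at 57.8, 75.1 and 70.8 CPM in SHP-KO replicates 1 to 3 and at 47.8, 53.1 and 52.6 CPM in WT replicates 1 to 3. SHP-KO replicate 1 lay nearer to the WT libraries than to the other SHP-KO libraries. The rise was log2 0.42 with an SE of 0.065 (adjusted p 1.42e-07, edgeR), and the call was lost when a CV of 0.2 was assumed (exact test of edgeR, adjusted p 0.192). The NADPH list also holds pentose phosphate enzymes that make no NADPH themselves: Pgls, Tkt, Taldo1, Rpia and Rpe. Of its 8 tested genes 1 was higher, 4 lower and 3 did not pass, the list's median being log2 -0.17. Among all tested genes 35.2% were called higher and 35.4% lower. Of the enzymes that make NADPH, Me1, malic enzyme, rose by log2 0.44 and Idh1, cytosolic isocitrate dehydrogenase, fell by 0.60, while Pgd did not pass. Tkt, transketolase, fell by 0.40. Pgd, the next NADPH step after G6pdx, was at 240.3 ± 9.99 CPM in SHP-KO and 241 ± 6.84 CPM in WT. Of the superoxide dismutase and catalase genes, Sod1 was higher (log2 0.08), Ccs, its copper chaperone, lower (log2 -0.23), and Sod2, Sod3 and Cat did not pass.

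**Figure D3:**
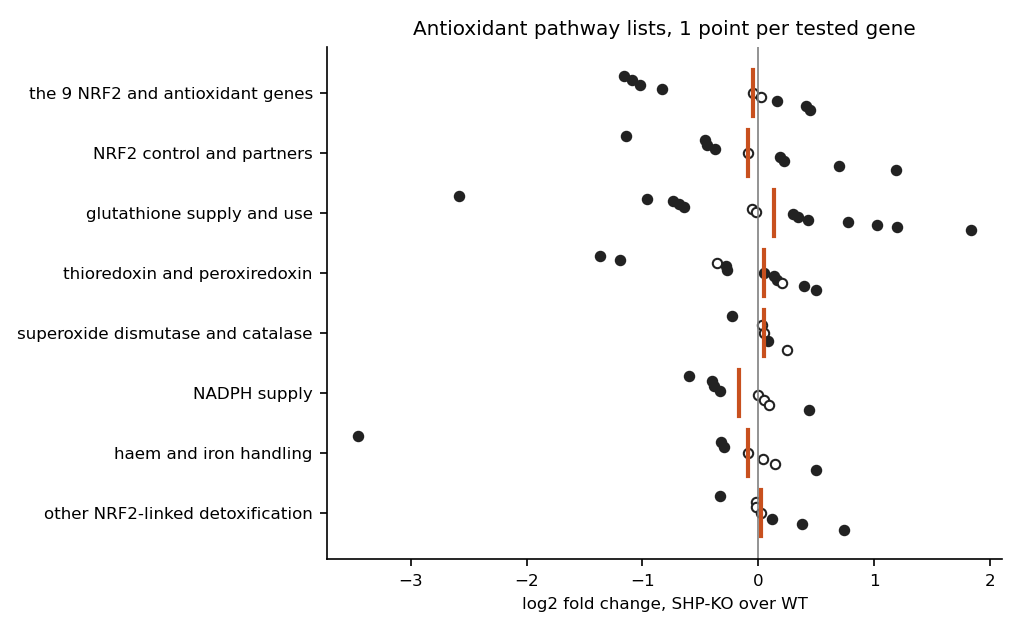
Log2 fold change, SHP-KO over WT, of every tested gene in the antioxidant lists, 1 point per gene, with the list's median as an orange bar. Filled points had an adjusted p under 0.05 (edgeR); each list has called genes on both sides of 0, and the medians lie between -0.17 and 0.14.

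Over the 7 antioxidant lists beside the 9 genes, 22 of 61 tested genes were higher, 22 lower and 17 did not pass (edgeR's quasi-likelihood test), where 35.2% of all tested genes were higher and 35.4% lower. When a CV of 0.2 was assumed, 7 were higher and 10 lower (exact test of edgeR), where 17.9% of all tested genes were higher and 15.5% lower. The quasi-likelihood counts are near the shares over all tested genes. With the CV of 0.2 the count of lower genes is near its share, while that of higher genes is below its share. Over all tested genes that test called 2164 higher and 1877 lower, and the difference in balance was not tested. Many of the small rises and falls given for these lists rest on the low spread among libraries.

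Per kb of exon, the order of the 9 levels differed between the genotypes. In SHP-KO the order was Srxn1 (216 ± 5.65 CPM per kb), Gpx2 (113 ± 1.26), Nfe2l2 (102 ± 2.15), Txnrd1 (78.0 ± 2.66), Gclm (41.6 ± 2.41), G6pdx (26.0 ± 3.46), Gclc (25.8 ± 0.57), Nqo1 (7.65 ± 0.677) and Hmox1 (0.348 ± 0.0644). In WT it was Gpx2 (228 ± 2.02), Srxn1 (222 ± 2.23), Gclm (92.8 ± 0.313), Nfe2l2 (75.3 ± 1.14), Txnrd1 (69.8 ± 0.394), Gclc (25.5 ± 0.41), G6pdx (19.6 ± 1.13), Nqo1 (13.7 ± 1.27) and Hmox1 (0.74 ± 0.122). Only G6pdx and Gclc in SHP-KO overlapped between neighbours. Srxn1 stood above 96.7% of tested genes in SHP-KO and 96.8% in WT, and Hmox1 above 5.34% in SHP-KO and 14.8% in WT.

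**Figure D4:**
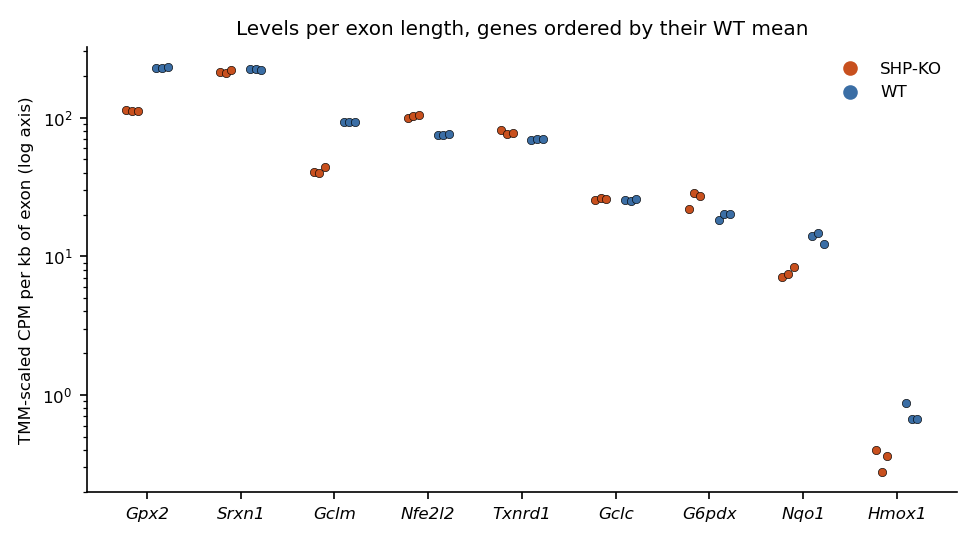
Level per kb of exon of the 9 genes in each library, on a log axis, ordered by the WT mean, with SHP-KO left of WT for each gene. Gpx2 and Srxn1 lead in WT at 228 and 222 CPM per kb, while in SHP-KO Gpx2 is at 113 and Srxn1 at 216.

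Set against Nfe2l2 within the same library, 7 of the 8 other genes were lower in every SHP-KO library than in any WT library. The same was true of 63.9% of the 12105 other tested genes, with Nfe2l2 itself higher in SHP-KO, so the count does not set these genes apart, and Gclc and Srxn1, which did not pass by themselves, are among the 7. The level of Gpx2 was 1.10 ± 0.0357 times that of Nfe2l2 in SHP-KO and 3.03 ± 0.0229 times in WT, and that of Gclm 0.406 ± 0.0217 times in SHP-KO and 1.23 ± 0.0163 times in WT. For Nqo1 the ratio was 0.0747 ± 0.0056 in SHP-KO and 0.182 ± 0.0195 in WT. Srxn1, flat by itself, stood at 2.11 ± 0.0616 times Nfe2l2 in SHP-KO and 2.95 ± 0.0735 times in WT. G6pdx alone overlapped, at 0.253 ± 0.0291 in SHP-KO and 0.26 ± 0.0148 in WT (difference of mean log2 ratios -0.04, p = 0.80 in a two-sided exact permutation test). The other 7 ratios each had p = 0.10, the smallest possible in that exact test, and 0.113 after adjustment over the 9 ratios. These ratios share Nfe2l2 and are not independent of each other.

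**Figure D5:**
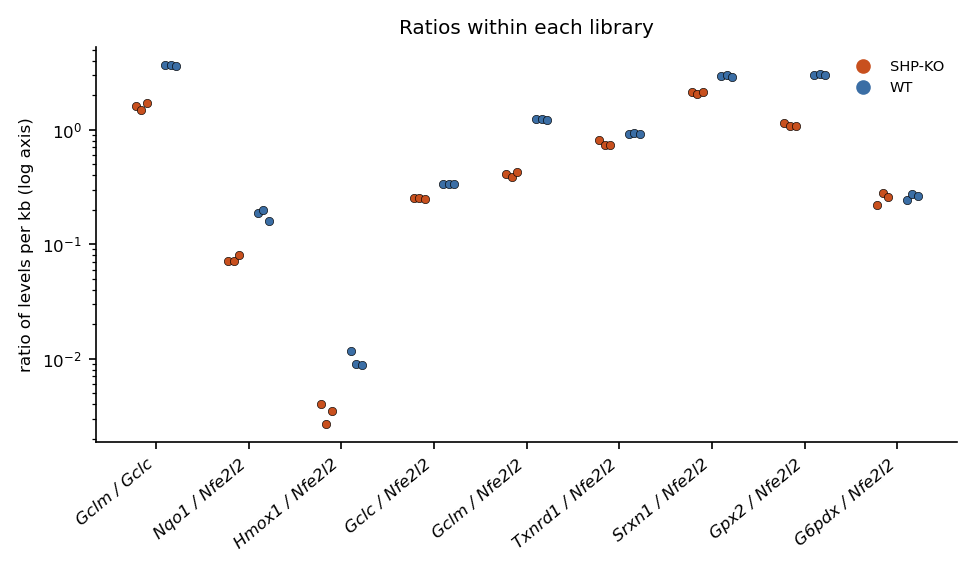
Ratio of levels per kb within each library, on a log axis, for Gclm over Gclc and for each of the 8 other genes over Nfe2l2, with SHP-KO left of WT. The groups are apart for every ratio except G6pdx over Nfe2l2, and over Nfe2l2, whose own level was 1.36-fold higher, 63.9% of all other tested genes were likewise apart and lower, and Gclm over Gclc is near 1.61 in SHP-KO and near 3.65 in WT.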

How the data were processed

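Libraries of total RNA gave 100 bp reads on an Illumina HiSeq2000, per the labels' protocols. Of the upstream tools, STAR 2.6.0c, Trimmomatic 0.38, FastQC 0.11.5, bcl2fastq 2.17.1.14 and edgeR are listed in the submitters' processing notes, and the build was mm9. Each library's deposited file holds raw counts per gene from featureCounts 1.5.2, run over exons and without strand, per the file headers. Strand-blind counting cannot separate antisense genes, but no exon of the 9 genes overlaps one of another annotated gene. The authors' deposited table gives log2 fold changes and p-values.

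Counts were filtered with filterByExpr (minimum count 10), scaled by TMM factors and fitted in edgeR 4.0.16 under R 4.3.3 by robust quasi-likelihood, with p-values adjusted over all tested genes at 0.05. CPM values are TMM-scaled, and per kb values are divided by the exon length in the files. Alternatives used DESeq2 1.42.0 and limma 3.58.1 among others. An exact test with a CV of 0.2 on genes above 1 CPM repeated the authors' table to within 5.3e-15 in log2 fold change. The fit was tested on simulated data. The genes and lists were chosen with earlier results of these data known. Named besides the 9 genes are Nr0b2, the whole list of NRF2 regulators, up to 2 rises and 2 falls with the smallest p per list, and the 3 genes nearest to Nfe2l2 in profile; other names, such as Gpx4, Prdx4, Hmox2, Pgd and the marker genes, were chosen after their values were seen. Few counts limit Hmox1 and Slc7a11. Figures were drawn with matplotlib 3.10.9. Promoter coordinates are GRCm38.p6 and gene coordinates mm9.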

Additional observations from a re-analysis of the deposited data

How the results depend on the processing

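Gclm, Gpx2 and Nqo1 kept their direction and their call in all 17 alternatives, at log2 -1.22 to -1.07, -1.08 to -0.93 and -0.91 to -0.74. With the assumed CV of 0.2 (edgeR exact test) 4041 genes and 3 of the 9 passed, 0 of them higher (also 0 at an unadjusted p under 0.05), and the calls of Nfe2l2 (log2 0.44), Hmox1 (-1.09), Txnrd1 (0.16) and G6pdx (0.41) were lost, which that larger spread brings about by construction. Hmox1 also missed in DESeq2 (log2 -1.10) and was removed by the filter in 4 alternatives: that of at least 5 CPM in 3 libraries, and leaving out any WT library. Gclc reversed to log2 -0.017 without scaling factors and to -0.039 with no count filter, and was called at 0.11 with libraries scaled to the epithelium markers. Srxn1 was called at -0.080 without scaling factors and at -0.10 with no count filter, and reversed to 0.050 with the epithelium scaling. With no count filter the log2 fold changes of all 9 genes lay lower than in the main fit. For example, Nfe2l2 was at 0.38 against 0.44 and G6pdx at 0.36 against 0.42. The TMM factors were recomputed on the unfiltered genes there, and their part in the shift was not tested separately. With no count filter 9452 genes were called.

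Leaving out each library in turn gave 8260 to 8407 called genes and 6 to 7 of the 9, and log2 fold changes of 0.43 to 0.46 (Nfe2l2), 0.13 to 0.17 (Txnrd1), 0.33 to 0.51 (G6pdx), 0.00066 to 0.033 (Gclc), -0.06 to -0.03 (Srxn1) and -1.20 to -0.95 (Hmox1). G6pdx was highest without SHP-KO replicate 1. With the replicate number as a block 8573 genes were called against 8543, and no call among the 9 changed. Same-numbered libraries did not deviate together (r = 0.0185, 0.0213 and -0.00643 across genes), so the numbers were not taken to pair libraries.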

Other observations

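The command in the file headers did not ask for multi-mapped reads, so reads shared by close copies of a gene are not in the counts. Gpx2-ps1, a pseudogene of Gpx2, held 16 counts in all SHP-KO and 21 in all WT libraries, beside 3090 and 9333 for Gpx2. G6pd2, an intronless copy of G6pdx on chromosome 5, held 1 count in all SHP-KO and 1 in all WT libraries. Among relatives of NRF2, Nfe2l3 held 14 counts in SHP-KO and 12 in WT, and Nfe2, the blood cell member, 11 in SHP-KO and 12 in WT. Of the genes named Nfe2 or Nfe2l, Nfe2l2 and Nfe2l1 thus carried nearly all counts, Bach1 being left out of this comparison. Libraries within a group differed by slightly more than counting noise, with a chi-square per degree of freedom of 1.33 to 1.98 across genes, against 88.8 to 104.8 between groups.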
